A study of Mus musculus with 14 samples.

Results

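The interferon-response genes described here are 38 mouse genes that interferons are known to switch on. They were taken as a list of named genes, set with earlier results of these data known. All 38 were found among the 55291 gene symbols of the count table, and all 38 had enough counts to be among the 17933 genes tested. RNA had been sequenced from frozen nodules of lung tumors in C57BL/6 mice, and every group carried the HER2 exon 20 YVMA genotype, an in-frame insertion in the kinase domain of the receptor HER2. The 5 groups were vehicle (2 libraries), mobocertinib (TAK-788), an inhibitor of the EGFR and HER2 kinases (3 libraries), T-DM1, an antibody against HER2 linked to a microtubule poison (3 libraries), the combination of both drugs (3 libraries), and nodules with acquired resistance to mobocertinib alone, called resistant below (3 libraries). Treatment was long term, and the labels give no dose, duration, age, transgene driver or count of animals, so p-values measure the spread between libraries, which may be technical.

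Interferons signal in 2 main ways. Type I interferons (alpha, beta) bind the receptor IFNAR1-IFNAR2 and activate a complex with STAT2 and IRF9 that binds the interferon-stimulated response element. Interferon gamma binds IFNGR1-IFNGR2 and acts through the gamma-activated site. The genes they induce sense foreign RNA and DNA, block viral replication and, as guanylate-binding proteins and immunity-related GTPases, attack membranes around intracellular microbes. In tumors the same genes respond to interferon from immune cells or from the tumor cells, for instance after nucleic acids reach the cytosol.

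Library totals ran from 19.3 M to 31.3 M counts (M, 1e6). Values below are CPM, counts per 1e6 counts of the library after TMM scaling, unless another scale is named. The vehicle libraries stood apart from the rest. Transcripts under 1 kb took 30.8% and 36.5% of their counts against 8.14% to 14.3% elsewhere, and transcripts over 5 kb took 5.49% and 4.06% against 11.6% to 18.9%. Markers of other cells moved with them. Summed endothelial markers (4 genes) were 72.7 and 101 CPM in vehicle against 251 to 757 CPM elsewhere. Sftpc, the surfactant gene of alveolar type II cells, was 116690 and 185948 CPM against 2871 to 46306 CPM and made up most of the sum of 6 lung epithelial markers, while Cdh1 of the same list was 169 and 98.4 CPM against 274 to 706 CPM. Neutrophil markers (5 genes) were 446 and 562 CPM against 11.2 to 261 CPM. Most of the vehicle sum was S100a8 and S100a9, while Csf3r of the same list was 23.9 and 14.4 CPM against 2.99 to 37.5 CPM. Every comparison with vehicle carries these differences, whose part in the results was not tested. The endothelial markers and Cdh1, low in vehicle, have 4203 to 9030 exon bases. Sftpc, S100a8 and S100a9, high in vehicle, have 522 to 1034. Whether these marker differences are part of the length difference was not tested. In bulk nodules, fewer cells of a type and less RNA per cell cannot be told apart.

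The 38 genes were highest in the T-DM1 nodules, and 2 of the 3 T-DM1 libraries carried that level. The T-DM1 group had the highest mean for 35 of the 38 genes. The exceptions were Bst2 and Ifi35, highest in vehicle, and Gbp7, highest in resistant nodules. The lowest mean was in vehicle for 20 genes, in resistant for 15 and in mobocertinib for 3. Libraries T-DM1 1 and T-DM1 3 were both above all other 12 libraries for 25 genes, while T-DM1 2 was the lowest of its group for all 38. The median ratio of the highest to the lowest T-DM1 library was 3.12, from 1.34 for Ddx58 to 7.14 for Oasl1. That ratio had a median of 2.38 in mobocertinib, 1.5 in combination, 2.41 in resistant and 1.47 in vehicle. Per length, mean levels over the 14 libraries ran from 0.69 TPM for Mx2 to 133 TPM for Bst2, with a median of 10.9 TPM.

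Many of the genes lie near one another. In the GENCODE M21 annotation (GRCm38), 20 of the 38 sit in 8 groups with gaps under 1 Mb. Gbp5, Gbp7, Gbp3 and Gbp2 lie at chr3:142493978-142638008, Oas2, Oas3 and Oas1a at chr5:120730333-120907521, Oasl2 and Oasl1 at chr5:114896936-114937915, Ifit2, Ifit3 and Ifit1 at chr19:34550694-34650009, and Igtp and Irgm2 at chr11:58199556-58222782. Mx1 and Mx2 form another group of relatives, while Dhx58 with Ifi35 and Rsad2 with Cmpk2 are neighbours of different families. Relatives share ancestry and sometimes reads, and are not independent observations.

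**Figure D1:**
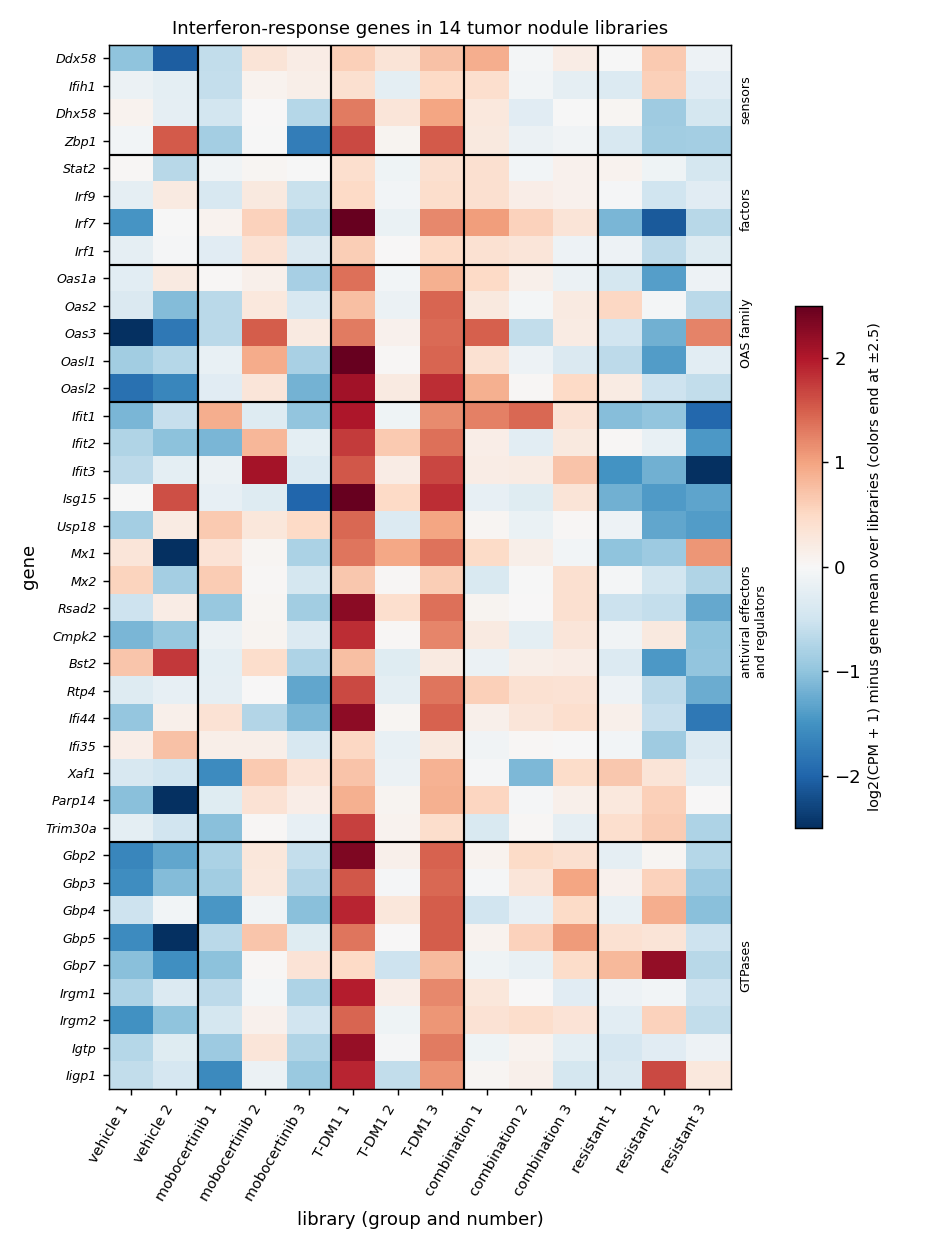
Levels of the 38 interferon-response genes (rows, by role) in the 14 libraries (columns, by group), each shown as the deviation of log2(CPM + 1) from the gene's own mean. T-DM1 1 and T-DM1 3 are red for most genes, and both were above all other 12 libraries for 25 of them.

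Against vehicle, T-DM1 nodules had higher levels of 17 of the 38 genes and lower levels of 0 by edgeR's quasi-likelihood test (Benjamini-Hochberg adjusted p below 0.05). That is 44.7% of the members, where 16.7% of all genes tested were higher and 14.9% were lower. The median log2 fold change of the 38 was 1.82 against 0.18 over all genes, and 36 of the 38 values were above 0. The 3 T-DM1 libraries were all above both vehicle libraries for 24 members, as for 32.2% of all genes. By role, 4 of 5 OAS genes, 6 of 9 GTPases, 5 of 16 other antiviral genes, 1 of 4 sensors and 1 of 4 transcription factors rose. The count was 11 without vehicle 1, 9 without vehicle 2 and 25 without T-DM1 2. On the TPM scale it was 37, with 0 lower, where limma called 57.4% of all genes higher and 3.51% lower. With offsets for transcript length and GC content it was 13, and 6 genes (Ddx58, Oasl2, Parp14, Cmpk2, Gbp2, Irgm2) passed under all 12 alternatives tried.

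**Figure D2:**
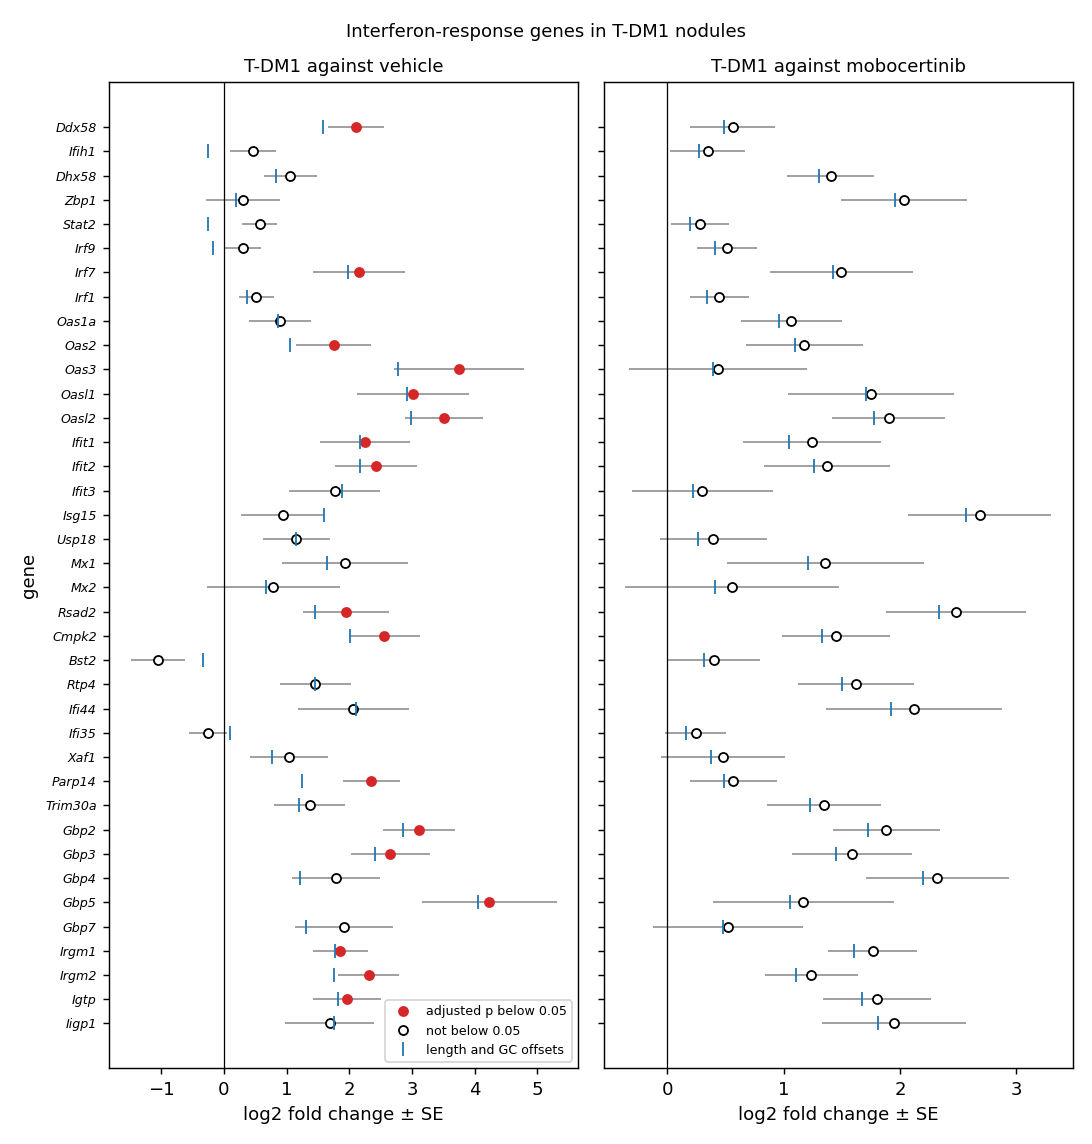
Log2 fold change ± SE of each gene in T-DM1 against vehicle (left) and against mobocertinib (right); filled points have an edgeR adjusted p below 0.05 and blue ticks are values with length and GC offsets. On the left 17 points are filled and the median is 1.82, and on the right 0 are filled, the median is 1.30 and all 38 values are above 0.

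Sensors recognise viral nucleic acid. Ddx58 encodes RIG-I, the helicase that detects RNA with a 5′ triphosphate and signals toward interferon transcription. Its level was 13.4 and 5.94 CPM in vehicle, 17.9, 35.2 and 31.9 in mobocertinib, 42.9, 35.4 and 47.3 in T-DM1, 53.4, 27.0 and 32 in combination, and 27.9, 44.8 and 25.8 in resistant nodules. Both vehicle libraries lay below the other 12, which overlapped one another. The log2 fold change against vehicle was 1.54 ± 0.44 (SE) in mobocertinib, 2.11 ± 0.45 in T-DM1, 1.95 ± 0.44 in combination and 1.76 ± 0.44 in resistant nodules, with edgeR adjusted p of 0.0173, 0.00427, 0.00546 and 0.00719. These 4 comparisons share the vehicle libraries. Zbp1, a sensor of Z-form nucleic acid that can trigger necroptosis, was 15.3 and 48.7 CPM in vehicle, 8.57, 16.1 and 4.19 in mobocertinib, 53.0, 16.9 and 48.4 in T-DM1, 19.4, 14.5 and 15.1 in combination, and 12.0, 8.38 and 8.59 in resistant nodules. The vehicle libraries were far apart, and vehicle 1 lay within the mobocertinib range. Zbp1 fell against vehicle by 1.73 ± 0.58 on the log2 scale in mobocertinib (edgeR adjusted p = 0.0369) and by 1.72 ± 0.58 in resistant nodules (0.0314). Without vehicle 2 the values were -0.55 and -0.55, with edgeR adjusted p of 0.584 and 0.561. The other RNA sensors, Ifih1 (MDA5) and Dhx58 (LGP2), passed edgeR's test in none of the 8 comparisons, with log2 fold changes of 0.47 and 1.06 in T-DM1 against vehicle.

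The transcription factors include STAT2 and IRF9, partners in the type I complex, IRF1, a direct gamma target, and IRF7, which amplifies interferon alpha transcription. Irf7 was 17.5 and 50.2 CPM in vehicle, 53.7, 76.3 and 29.9 in mobocertinib, 289, 45.0 and 117 in T-DM1, 105, 75.9 and 63.4 in combination, and 22.5, 11.1 and 30.8 in resistant nodules. T-DM1 1 stood above every other library, and T-DM1 2 lay inside the vehicle range. Irf7 rose in T-DM1 against vehicle by 2.15 ± 0.73 (log2; edgeR adjusted p = 0.0407). Only 4 of 12 alternatives kept that call, and without vehicle 1 the adjusted p was 0.194. Stat2 was 25.3 and 15.2 CPM in vehicle, 23.5, 25.8 and 24.8 in mobocertinib, 33.9, 23.2 and 33.0 in T-DM1, 33.2, 23.7 and 27.0 in combination, and 26.6, 23.2 and 18.2 in resistant nodules. These ranges overlapped, and the T-DM1 difference from vehicle was 0.57 ± 0.28 (log2; edgeR adjusted p = 0.136). Irf9 and Irf1 passed edgeR's test in none of the 8 comparisons.

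The OAS genes encode 2′-5′ oligoadenylate synthetases, which activate RNase L to degrade RNA, and the related OASL proteins. Oasl2 was 6.12 and 7.36 CPM in vehicle, 20.2, 30.9 and 10.5 in mobocertinib, 109, 29.2 and 92.0 in T-DM1, 46.8, 25.5 and 35.5 in combination, and 28.9, 17.0 and 15.9 in resistant nodules. All 12 treated or resistant libraries were above both vehicle libraries. Oasl2 rose by 3.51 ± 0.62 in T-DM1 against vehicle, an 11.4-fold difference (edgeR adjusted p = 0.00153), and by 2.42 ± 0.59 in combination (0.00758), 1.61 ± 0.57 in mobocertinib (0.0446) and 1.61 ± 0.57 in resistant nodules (0.0369). The mobocertinib and resistant values lost the call with length and GC offsets (edgeR adjusted p 0.121 and 0.134), without vehicle 1 (0.152 and 0.138) and without vehicle 2 (0.13 and 0.111). Oas3 was 1.14 and 3.12 CPM in vehicle, 7.97, 39.5 and 15.7 in mobocertinib, 33.9, 14.3 and 37.2 in T-DM1, 38.9, 8.27 and 15.4 in combination, and 9.20, 5.19 and 32.4 in resistant nodules. The spread within each treated group was several-fold, and the vehicle libraries were the lowest. Oas3 rose against vehicle by 3.75 ± 1.04 in T-DM1 (edgeR adjusted p = 0.0164), with values from 2.88 to 3.32 in the other groups, and lost all 4 calls with length and GC offsets. Oasl1, which restrains IRF7 translation in mice, was 1.74 and 2.08 CPM in vehicle, 3.39, 8.52 and 1.85 in mobocertinib, 29.6, 4.15 and 12.7 in T-DM1, 5.56, 3.58 and 2.91 in combination, and 2.18, 0.91 and 3.19 in resistant nodules. Its T-DM1 libraries differed by 7.14-fold among themselves. Oasl1 rose in T-DM1 against vehicle by 3.02 ± 0.89 (edgeR adjusted p = 0.0223), and its values in the other 3 groups against vehicle, 0.13 to 1.26, did not pass. Oas2 was 4.44 and 2.30 CPM in vehicle, 3.39, 7.38 and 4.30 in mobocertinib, 10.7, 5.29 and 18.1 in T-DM1, 7.35, 5.75 and 7.22 in combination, and 9.02, 5.77 and 3.40 in resistant nodules. It rose by 1.75 ± 0.60 in T-DM1 against vehicle (edgeR adjusted p = 0.0411), a call lost with length and GC offsets (0.152). Oas1a shares 57.6% of its 50-base transcript words with Oas1g and Oas1b, so its counts are uncertain, and it passed edgeR's test in no comparison.

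Among the 16 other antiviral effectors and regulators, 5 rose in T-DM1 against vehicle and 0 fell (Ifit1, Ifit2, Rsad2, Cmpk2 and Parp14). Parp14, a large ADP-ribosyltransferase, was 18.8 and 5.94 CPM in vehicle, 32.2, 51.5 and 44.7 in mobocertinib, 74.0, 42.1 and 74.4 in T-DM1, 58.4, 39.2 and 43.5 in combination, and 47.9, 60.9 and 40.1 in resistant nodules. Both vehicle libraries lay below the other 12. It rose by 1.78 ± 0.45 in mobocertinib, 2.35 ± 0.46 in T-DM1, 1.92 ± 0.45 in combination and 2.0 ± 0.45 in resistant nodules (edgeR adjusted p 0.00944, 0.00262, 0.00615 and 0.00393). With length and GC offsets these became 0.75, 1.24, 0.86 and 0.55, and the T-DM1 value alone passed (0.0164). Bst2, or tetherin, which holds budding virions on the cell surface, was 133 and 282 CPM in vehicle, 69.0, 111 and 47.1 in mobocertinib, 139, 65.8 and 95.7 in T-DM1, 73.9, 91.0 and 92.9 in combination, and 64.5, 29.4 and 41.0 in resistant nodules. Here the vehicle libraries were above all mobocertinib, combination and resistant libraries, and T-DM1 1 lay between them. Bst2 fell by 1.46 ± 0.44 in mobocertinib, 1.27 ± 0.44 in combination and 2.21 ± 0.44 in resistant nodules (edgeR adjusted p 0.0224, 0.0381 and 0.00192). With length and GC offsets the resistant value was -1.07 and passed (edgeR adjusted p = 0.044). The mobocertinib and combination values became -0.65 and -0.33 and did not pass (edgeR adjusted p 0.211 and 0.529). Without vehicle 2 the resistant value was -1.44, against -2.21 with both vehicle libraries. On the deposited TPM scale the mobocertinib and combination values turned positive (0.22 and 0.57).

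Isg15, the ubiquitin-like protein conjugated to other proteins during the response, was 17.4 and 56.0 CPM in vehicle, 15.1, 14 and 3.73 in mobocertinib, 120, 25.1 and 66.4 in T-DM1, 15.3, 14.2 and 22.2 in combination, and 7.06, 5.98 and 6.43 in resistant nodules. The 3 resistant libraries were below both vehicle libraries, and all 3 T-DM1 libraries were above every mobocertinib, combination and resistant library. It fell by 2.5 ± 0.65 in resistant nodules against vehicle (edgeR adjusted p = 0.009), which was 0.105 with length and GC offsets and 0.204 without vehicle 2. Cmpk2, a mitochondrial nucleotide kinase beside Rsad2, was 3.12 and 3.71 CPM in vehicle, 7.22, 8.64 and 6.18 in mobocertinib, 31.7, 8.36 and 20.4 in T-DM1, 9.62, 6.65 and 10.2 in combination, and 7.53, 9.88 and 3.55 in resistant nodules. T-DM1 1 and T-DM1 3 were the highest of the 14. Cmpk2 rose by 2.56 ± 0.57 in T-DM1 against vehicle (edgeR adjusted p = 0.00553). Of the rest, Ifit1 and Ifit2, which bind foreign or AU-rich RNA, and Rsad2 (viperin), which makes a chain-terminating nucleotide, rose in T-DM1 against vehicle with log2 fold changes of 2.25, 2.43 and 1.95. These calls held under 7, 10 and 5 of 12 alternatives. Rsad2 did not pass with length and GC offsets (edgeR adjusted p = 0.121). Against vehicle, Ifit1 also rose in combination by 2.05, a call kept by 7 of 12 alternatives. Ifi35 fell by 0.88 in resistant nodules against vehicle, a value of -0.21 that did not pass with length and GC offsets. Ifi35 shares 16.8% of its exon bases with another gene, and whether reads were counted by strand is not known here. Ifit3, Usp18, Mx1, Mx2, Rtp4, Ifi44, Xaf1 and Trim30a passed edgeR's test in none of the 8 comparisons. The vehicle libraries were far apart for Mx1, at 16.6 and 0.45 CPM.

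Of the 9 GTPases, 6 rose in T-DM1 against vehicle and 0 fell, and all 9 log2 fold changes lay between 1.69 and 4.23. Gbp2, a guanylate-binding protein that assembles on the membranes of microbe-holding vacuoles, was 10.9 and 14 CPM in vehicle, 20.2, 44.0 and 23.5 in mobocertinib, 183, 39.2 and 101 in T-DM1, 37.8, 50.2 and 47.4 in combination, and 30.6, 37.2 and 21.5 in resistant nodules. Both vehicle libraries were the lowest, and T-DM1 2 lay among the combination libraries. It rose by 3.12 ± 0.58 in T-DM1 (edgeR adjusted p = 0.00197) and 1.86 ± 0.54 in combination (0.0187). The T-DM1 call held under all 12 alternatives and the combination call under 10, and those that lost it left out 1 vehicle library. Gbp3 was 4.14 and 6.09 CPM in vehicle, 7.17, 17.0 and 8.0 in mobocertinib, 43.1, 13.8 and 39.8 in T-DM1, 13.8, 17.5 and 28.6 in combination, and 15.1, 21.3 and 6.95 in resistant nodules. T-DM1 1 and T-DM1 3 were again the highest, and both vehicle libraries the lowest. Gbp3 rose by 2.66 ± 0.64 in T-DM1 and 1.96 ± 0.62 in combination (edgeR adjusted p 0.0081 and 0.0262). These calls held under 11 and 9 of 12 alternatives. Without combination 3 the combination value was 1.66 (edgeR adjusted p = 0.0696). Irgm1, a regulatory immunity-related GTPase that guards host membranes, was 28.6 and 38.9 CPM in vehicle, 31, 47.8 and 28.9 in mobocertinib, 196, 55.6 and 115 in T-DM1, 61.1, 50.1 and 40.7 in combination, and 45.1, 47.3 and 34.4 in resistant nodules. All groups but T-DM1 lay between 28.6 and 61.1. Irgm1 rose by 1.86 ± 0.44 in T-DM1 against vehicle (edgeR adjusted p = 0.00807), which became 0.0512 without vehicle 1. Irgm2 was 7.86 and 11.6 CPM in vehicle, 17.7, 26.3 and 17.2 in mobocertinib, 68.6, 22.4 and 53.5 in T-DM1, 31.6, 33.4 and 31.2 in combination, and 20.2, 36.9 and 15.5 in resistant nodules. Vehicle libraries were the lowest and did not overlap any other group. Irgm2 rose by 2.31 ± 0.48 in T-DM1, 1.72 ± 0.47 in combination and 1.32 ± 0.46 in resistant nodules (edgeR adjusted p 0.00391, 0.0137 and 0.0368). Of 12 alternatives, 12, 11 and 6 kept these calls. With length and GC offsets the resistant value was 0.66 and did not pass (edgeR adjusted p = 0.244). Igtp (Irgm3) rose by 1.96 in T-DM1 against vehicle. Its exons overlap those of Irgm2 on the same strand over 8.01% of bases, so a part of their counts is uncertain. Gbp5, which promotes inflammasome activation, was at 1.56 and 0 CPM in vehicle and at 3.74 to 20.5 CPM elsewhere, so its folds rest on few counts.

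**Figure D3:**
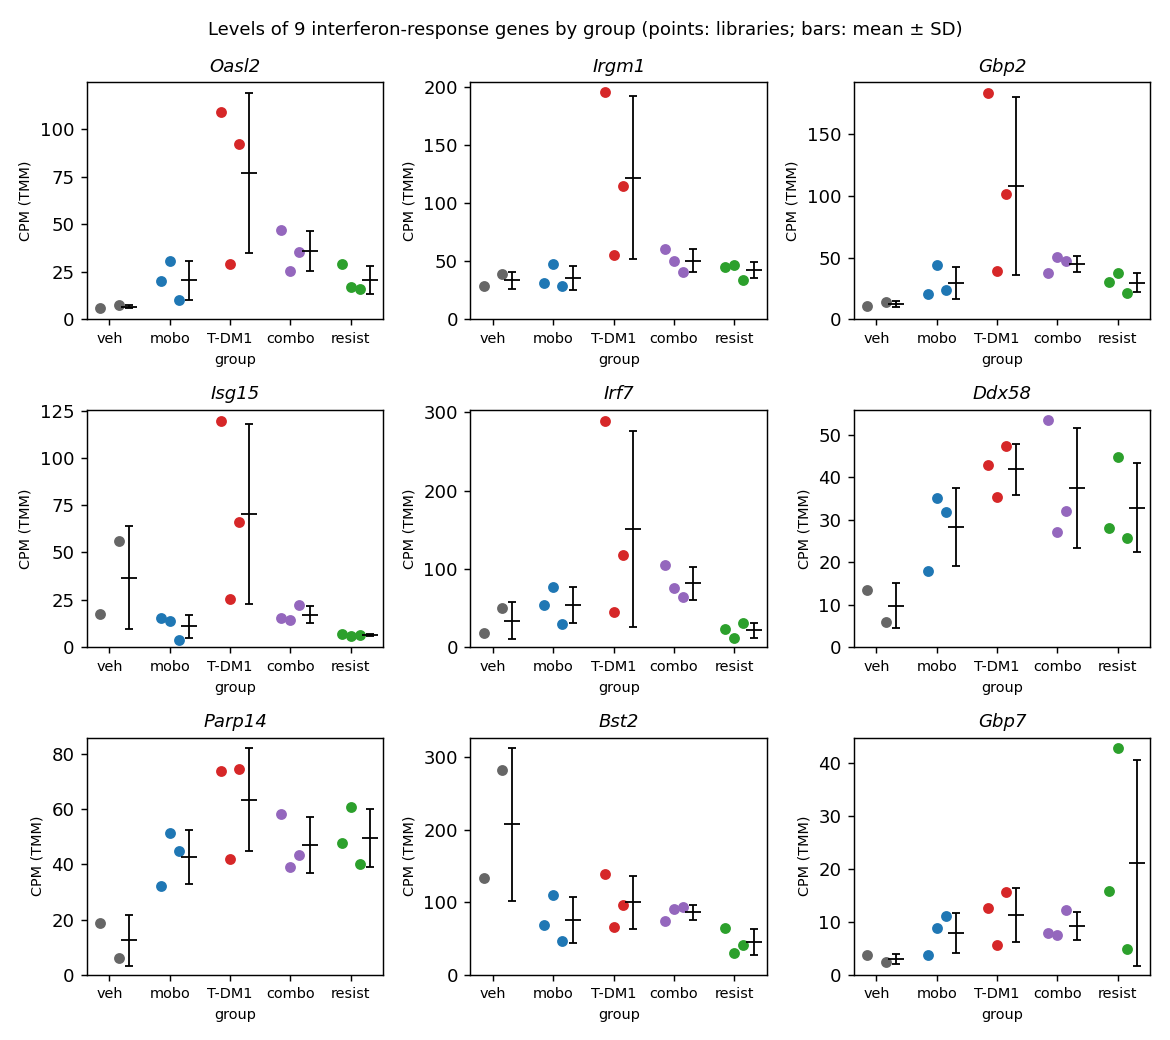
CPM of 9 interferon-response genes in each library (points) by group, with the group mean and SD as bars; veh is vehicle, mobo is mobocertinib, combo is combination and resist is resistant. For Gbp2 the T-DM1 libraries lie at 183, 39.2 and 101 CPM, while Bst2 is highest in a vehicle library at 282 CPM.

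In the region before their start sites, many of the genes carry the binding letters of interferon-activated factors, shown here because the type I and gamma pathways differ in these letters. RefSeq promoters on build GRCm38.p6 (250 bases before to 50 after the start) were matched for 28 of the 38 genes. They were searched on both strands for GAAANNGAAA, the core of the interferon-stimulated response element, and for TTCNNNGAA, the palindrome of the gamma-activated site, which can overlap each other. The first was found in 18 of the 28 genes (64.3%), against 3.99% of the 27025 genes of the promoter table. The second was found in 9 (32.1%) against 9.55%. Both were found in 6 genes, 4 of them GTPases, and neither in 7. The 7 GTPases with an entry all held the first motif. A match is a description of the letters and not evidence that a factor bound there. The windows below lie upstream of the start and run 5′ to 3′ on the gene's strand, with matches in capitals, at chr4:156200857-156200914 (minus strand) for Isg15, chr19:34640767-34640831 (plus) for Ifit1, chr3:142530212-142530310 (plus) for Gbp7, chr11:58199493-58199549 (plus) for Igtp, chr11:58214884-58214940 (plus) for Irgm2 and chr11:53769906-53769950 (plus) for Irf1.
Isg15: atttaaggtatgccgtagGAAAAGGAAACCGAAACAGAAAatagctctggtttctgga
Ifit1: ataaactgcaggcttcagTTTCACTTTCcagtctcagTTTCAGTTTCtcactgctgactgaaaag
Gbp7: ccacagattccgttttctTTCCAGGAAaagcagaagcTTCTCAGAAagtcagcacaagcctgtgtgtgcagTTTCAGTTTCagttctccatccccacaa
Igtp: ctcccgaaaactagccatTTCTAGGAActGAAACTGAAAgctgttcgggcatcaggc
Irgm2: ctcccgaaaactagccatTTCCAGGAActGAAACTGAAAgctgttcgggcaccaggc
Irf1: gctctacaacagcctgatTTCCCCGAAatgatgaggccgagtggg
Isg15 holds 3 overlapping matches to the first motif and Ifit1 holds 2, while Irf1 holds a gamma-activated-site match alone. The Igtp and Irgm2 windows differ at 2 of 57 bases and keep both motifs at the same spacing. Oasl2, whose T-DM1 difference from vehicle had the smallest adjusted p of the 38, has neither motif in its window.

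T-DM1 nodules were compared with mobocertinib nodules, a contrast that leaves out the vehicle libraries. All 38 log2 fold changes were above 0, from 0.24 to 2.69, with a median of 1.30 against 0.01 over all genes. None of the members passed edgeR's test, which called 0.0223% of all genes higher and 0.00558% lower. At an unadjusted p below 0.05 there were 21 members, and 9.56% of all genes. DESeq2 called 11 members higher, and 1.86% of all genes. These were Isg15, Irgm1, Rsad2, Gbp2, Gbp4, Oasl2, Igtp, Zbp1, Dhx58, Iigp1 and Rtp4. The largest difference was for Isg15, with 70.4 ± 47.4 CPM (SD, n = 3) in T-DM1 and 10.9 ± 6.26 CPM (SD, n = 3) in mobocertinib, a log2 fold change of 2.69 ± 0.61 (edgeR adjusted p = 0.188, DESeq2 adjusted p = 0.00134). Irgm1 had the smallest edgeR p of the 38, at 122 ± 70.3 and 35.9 ± 10.3 CPM (SD, n = 3 each), a log2 fold change of 1.77 ± 0.38 (edgeR adjusted p = 0.157). Without T-DM1 2, edgeR called Irgm1, Gbp2 and Igtp. The libraries of the groups did not overlap for 9 members (Dhx58, Zbp1, Irgm1, Isg15, Rsad2, Gbp4, Trim30a, Ddx58 and Mx1), as for 9.64% of all genes. Summed fibroblast markers (4 genes) were 608 to 1246 CPM in T-DM1 and 307 to 586 CPM in mobocertinib, without overlap, and all 4 had fold changes above 0 (median 0.87) of which 0 passed. They were 252 and 254 CPM in vehicle, and their part in the result was not tested.

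Combination nodules had a median fold change below 0 against T-DM1 and above 0 against mobocertinib, and no member passed against either. Against T-DM1 all 38 log2 fold changes were below 0, from -2.03 to -0.09, with a median of -0.82 against -0.04 over all genes. None passed edgeR's test, which called 0% of all genes in either direction, or DESeq2, and 13 had an unadjusted p below 0.05, as had 5.1% of all genes. The 4 fibroblast markers were below 0 here too (median -0.78). The libraries did not overlap for 6 members (Dhx58, Ifit2, Isg15, Rsad2, Mx1 and Trim30a), as for 7.81% of all genes. Isg15 was at 17.2 ± 4.34 CPM (SD, n = 3) in combination, a log2 difference from T-DM1 of -2.03 ± 0.60 (edgeR adjusted p = 0.775). Igtp was at 28.1 ± 3.33 and 80.5 ± 54.8 CPM (SD, n = 3 each), a difference of -1.52 ± 0.46 (edgeR adjusted p = 0.775). Against mobocertinib the median of the 38 was 0.38, 31 values were above 0, and 0 members passed edgeR or DESeq2 or had an unadjusted p below 0.05 (1.46% of all genes did), where edgeR called 0% of all genes in either direction.

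Against vehicle, combination nodules had 9 members higher (23.7% of the members, 17.6% of all genes) and 1 lower (17.4% of all genes), with a median of 0.65 against 0.08. The 9 were Ddx58, Oas3, Oasl2, Ifit1, Parp14, Gbp2, Gbp3, Gbp5 and Irgm2, and Bst2 was the lower one. The count was 5 without either vehicle library and 14 when only these 2 groups were fitted. On the TPM scale 31 members were higher and 0 lower, where limma called 56.7% of all genes higher and 3.38% lower. Ddx58, Oasl2 and Gbp5 passed under all 12 alternatives. Mobocertinib nodules had 5 members higher (13.2%, where 16.8% of all genes were higher) and 2 lower (where 16.1% were lower), with a median of 0.42 against 0.09. These shares are at or below those of all genes. The 5 were Ddx58, Oas3, Oasl2, Parp14 and Gbp5, and Zbp1 and Bst2 were lower. The split was 4 higher and 3 lower with upper-quartile factors, 24 higher and 0 lower on the TPM scale (where limma called 55% of all genes higher and 3.11% lower), and 0 and 0 without vehicle 2.

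Resistant nodules had higher and lower members against vehicle, each at a share below that of all genes. Of the 38, 7 were higher (18.4%, where 22% of all genes were higher) and 4 lower (10.5%, where 19% of all genes were lower), with a median of 0.25 against 0.18. The higher ones were Ddx58, Oas3, Oasl2, Parp14, Gbp5, Gbp7 and Irgm2. The lower ones were Zbp1, Isg15, Bst2 and Ifi35, each with a longest coding transcript under 2 kb. The 8 members under 2 kb had a median of -1.09 and the 30 longer ones a median of 0.60. With length and GC offsets the medians were -0.76 and 0.26 and the split was 2 higher and 3 lower. It was 23 higher and 0 lower on the TPM scale (59.7% and 4.79% of all genes), and 1 and 0 without vehicle 2. Without offsets all 9 GTPases had values above 0 (median 1.32), while 10 of the 16 other antiviral genes were below 0 (median -0.45). These roles also differ in length. Every GTPase was over 2 kb, while Ifit3, Isg15, Usp18, Bst2, Rtp4 and Ifi35 of the other antiviral genes were under 2 kb. With length and GC offsets Gbp4 became -0.53 and the other GTPases stayed above 0.

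Against mobocertinib, which shares none of the vehicle libraries, resistant nodules had 0 members called by edgeR, which called 0% of all genes higher and 0.00558% lower. The median was -0.04, and 5 members (7.77% of all genes) had an unadjusted p below 0.05. Ifit3, Ifit1 and Usp18 were lower in all 3 resistant libraries than in any mobocertinib library, as were 5.75% of all genes. Ifit3 was at 7.07 ± 3.28 CPM (SD, n = 3) in resistant and 48.2 ± 48.6 CPM (SD, n = 3) in mobocertinib nodules, a log2 difference of -2.77 ± 0.65 (edgeR adjusted p = 0.622). It was the 1 member that DESeq2 called lower (adjusted p = 0.0176), as it did 0.0669% of all genes. The mobocertinib libraries were at 21.5, 104 and 18.8 CPM. Ifit3 shares 51.2% of its 50-base transcript words with Ifit3b. Usp18, the protease that removes ISG15 and damps the type I receptor, was at 9.45 ± 5.55 and 24.8 ± 3.28 CPM (SD, n = 3 each), a difference of -1.39 ± 0.47 (edgeR adjusted p = 0.622). Gbp7 and Iigp1, singled out after their values were seen, were at 42.8 and 111 CPM in resistant 2, and at 15.8 and 4.94 CPM (Gbp7) and 27.0 and 42.0 CPM (Iigp1) in the other resistant libraries. In resistant 2 the mean log2 deviation from the gene means was 0.66 for the GTPases and -0.91 for the OAS genes.

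**Figure D4:**
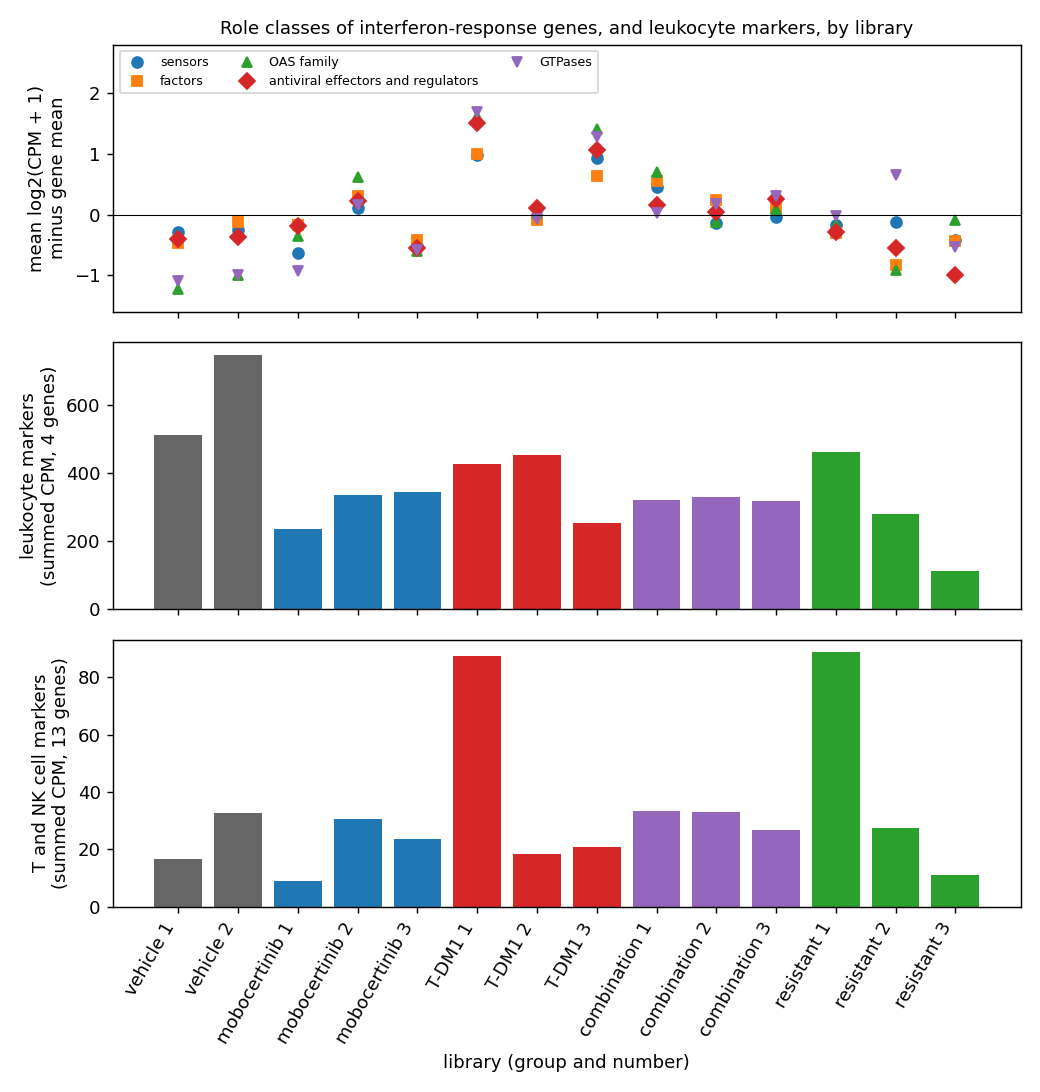
Top, mean deviation of log2(CPM + 1) from the gene means for each role of interferon-response genes, by library; middle and bottom, summed CPM of leukocyte and of T and NK cell markers. T and NK markers are highest in T-DM1 1 and resistant 1 (87.5 and 88.7 CPM), while T-DM1 3, high in the top panel, has 20.8 CPM; resistant 1 has 461 CPM of leukocyte markers.

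Within T-DM1, the mean deviation of the interferon-response genes was highest in library 1, then 3, then 2. Markers of T and NK cells and of conventional dendritic cells followed that order, and the other immune cell lists did not. Summed leukocyte markers (4 genes, 0 of them at 0 counts in all libraries) were 428, 452 and 254 CPM in T-DM1 1, 2 and 3, against 514 and 748 CPM in vehicle and 112 to 461 CPM elsewhere. Ptprc (CD45) was at 37.8 ± 14.5 CPM in T-DM1 (SD, n = 3) and 43.0 ± 11.5 CPM in vehicle (SD, n = 2). T and NK cell markers (13 genes) were 87.5, 18.3 and 20.8 CPM in T-DM1, 16.7 and 32.6 CPM in vehicle, and 9.07 to 88.7 CPM elsewhere. B cell markers (4 genes) were 185, 24.7 and 12.4 CPM in T-DM1. Plasmacytoid dendritic cell markers (5 genes), from the cells known for making type I interferon, were 74.8, 36.9 and 27.5 CPM in T-DM1 and 18.6 to 66.8 CPM elsewhere. Most of that sum was Irf8 and Cox6a2 (54.1 and 16.9 CPM in T-DM1 1), while Siglech was 2.04, 0.46 and 0 CPM in T-DM1 and 0 to 3.71 CPM elsewhere. Macrophage markers (8 genes) were 578 to 682 CPM in T-DM1 and 240 to 1413 CPM elsewhere. T-DM1 1 was thus high in lymphocyte markers and in interferon-response genes, and T-DM1 3 was high in the latter with lymphocyte markers in the range of the other libraries. The part of these cells in the interferon-response levels was not tested. Sftpc was 3137, 46306 and 9884 CPM in T-DM1 1, 2 and 3, highest in the T-DM1 library with the lowest interferon-response levels. Krt8 (848, 1242 and 984 CPM), Krt18 (761, 1587 and 1026 CPM) and Nkx2-1 (75.2, 197 and 114 CPM) were also highest there. Epcam (434, 301 and 430 CPM) and Cdh1 (653, 576 and 706 CPM) were lowest there.

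Transcripts of the interferons themselves were nearly undetected. Of 21 listed ligand genes 0 had enough counts to be tested, 16 had 0 counts in all 14 libraries (Ifnb1 and every listed Ifna gene among them), and the 21 held 63 counts in all. A count of 0 allows up to 3 counts in a library. Ifng had 0 in both vehicle libraries and 0 to 8 counts in the others, with 4, 0 and 4 in T-DM1. Of 6 receptor genes, 0 rose and 1 fell in T-DM1 against vehicle, Il10rb, by 0.92 (edgeR adjusted p = 0.0154). Of all genes 16.7% rose and 14.9% fell in that comparison, so 1 of 6 is near the background. The receptor genes Ifnar1, Ifnar2 and Ifngr1 had log2 fold changes between -0.12 and 0.21 in the 4 comparisons with vehicle and passed in none. Ifngr2 fell by 1.11 in mobocertinib, 0.88 in combination and 1.37 in resistant nodules (edgeR adjusted p 0.0142, 0.0372 and 0.0034). Values of Il10rb and Ifngr2 with length and GC offsets are not given here.

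T-DM1 against vehicle had 16.7% of all genes higher. Of the JAK kinases and STAT factors (4 genes outside the members described here), 2 rose there, Jak1 by 1.25 and Stat3 by 1.0. With length and GC offsets these values were 0.30 and -0.24. Among 10 inhibitors of JAK-STAT signaling, 1 rose and 2 fell in T-DM1 against vehicle, near the shares of all genes (16.7% and 14.9%). Ptpn11, the phosphatase SHP2, rose by 1.98, and the phosphatases Ptpn2 and Ptpn6 fell by 1.17 and 0.96. Their values with length and GC offsets are not given here. Socs1, an interferon-induced inhibitor of JAK kinases, was at 11.7 ± 1.15 CPM in vehicle (SD, n = 2) and 6.65 ± 3.23 CPM in T-DM1 (SD, n = 3), with an edgeR adjusted p of 0.434.

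Of 12 adaptors and kinases of nucleic acid sensing, 1 rose and 0 fell in T-DM1 against vehicle, where 16.7% of all genes rose and 14.9% fell. That gene was Tlr9, an endosomal DNA receptor, at 0 counts in both vehicle libraries and 1.18 to 5.17 CPM in T-DM1. The T-DM1 group mean was 11.7 times a floor of 3 counts in a vehicle library. Tlr9 was also above the vehicle libraries in every other library, at 0.30 to 6.15 CPM. Sting1, the adaptor downstream of cytosolic DNA, was at 62.7 ± 8.52 CPM in T-DM1 and 27.7 ± 2.75 CPM in mobocertinib nodules (SD, n = 3 each). That log2 difference was 1.18 ± 0.26, with an edgeR adjusted p of 0.163, and it was 0.62 ± 0.29 against vehicle (0.121). Cgas, the enzyme that feeds STING, was at 1.74 ± 0.48 CPM in T-DM1 (SD, n = 3) and 4.34 ± 1.84 CPM in vehicle (SD, n = 2), with an edgeR adjusted p of 0.146. Among 7 brakes on nucleic acid sensing, 6 were tested, and 2 rose and 3 fell in T-DM1 against vehicle (16.7% and 14.9% of all genes). The RNA editor Adar rose by 1.08 and the nucleotide hydrolase Samhd1 by 1.25, values of -0.07 and 0.52 with length and GC offsets. The RNase H2 subunits Rnaseh2a, Rnaseh2b and Rnaseh2c fell by 1.03, 1.17 and 1.87, and their values with length and GC offsets are not given here. Rnaseh2c shares 24.8% of its exon bases with Kat5, so a part of its counts is uncertain. Trex1 had 0 counts in every library but 4.42 to 18.7 TPM in the deposited TPM table, so its count of 0 is not read as absence.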

How the data were processed

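The tables used were deposited by the authors. The first gives whole-number counts for 55291 gene symbols in 14 libraries, and the second gives TPM values, which the authors had already scaled for transcript length and library size, for 47606 genes. The submitters' processing notes name STAR, RSEM and mm10. Which step each served, the versions, the annotation and whether strand was used were not given in the sources used here. Both tables name every library by its title, and 0 columns of other samples were found. Totals of 19.3 M to 31.3 M counts limit precision mainly for genes of a few CPM. All 13 pairs of libraries of one group differed by more than counting noise (chi-square over its degrees of freedom 87.9 to 504). That is more than re-sequencing of 1 library would give. It does not show that the libraries came from separate animals, whose number the labels do not give. Each library was treated as 1 replicate.

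Counts were tested in edgeR 4.0.16 (R 4.3.3) with TMM factors, filterByExpr by group, and its robust quasi-likelihood F-test, in 1 fit of 14 libraries with group means (9 residual degrees of freedom). A gene was called when its p, adjusted by Benjamini and Hochberg over all 17933 genes, was below 0.05, and the SE is the log2 fold change divided by the root of its F statistic. Alternatives were median-ratio and upper-quartile factors, no filter, DESeq2 1.42.0, limma 3.58.1 on log2(TPM + 1) for genes at 1 TPM or more in 2 libraries, spline offsets for the length and GC content of the longest coding transcript, a fit of the compared groups only, and leaving out each library. The scripts were tested on simulated data. The 38 members, their roles, the pathway lists and the marker lists were chosen with earlier results of these data known. Values by library are given for up to 4 called members per role by smallest p, and at least 2 per role. From pathway lists up to 4 called genes by smallest p and a set panel (Ifnb1, Ifng, Ifnar1, Ifnar2, Ifngr1, Socs1, Sting1, Cgas, Ptprc) are named. One gene of the pathway lists is not reported here.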

Additional observations from a re-analysis of the deposited data

How the results depend on the processing

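The 17 members called higher in T-DM1 against vehicle kept a positive value under every alternative, and 6 kept the call under all 12. Median-ratio factors left all counts as they were. On the deposited TPM scale the median of all genes against vehicle moved up to 1.11 in mobocertinib, 1.17 in T-DM1, 1.18 in combination and 1.27 in resistant nodules, and 24, 37, 31 and 23 members were called higher and 0 lower, where limma called 55%, 57.4%, 56.7% and 59.7% of all genes higher and 3.11% to 4.79% lower. The members' median there was still the largest in T-DM1, at 2.53 where that of all genes was 1.17. On that scale Bst2 turned to 0.2157 in mobocertinib and 0.5727 in combination and Ifi35 turned to 0.8597 in resistant nodules. With length and GC offsets the members called higher were 2 in mobocertinib, 13 in T-DM1, 7 in combination and 2 in resistant nodules, the members called lower were 1, 0, 0 and 3, and the resistant median was -0.05. Fitting the compared groups only gave 9 higher in T-DM1, 14 higher in combination, 4 higher and 0 lower in mobocertinib, and 2 higher and 2 lower in resistant nodules. With no filter 1, 0 and 2 members were lower in mobocertinib, combination and resistant nodules. Upper-quartile factors gave 14 higher in T-DM1. DESeq2 called 25 higher in T-DM1 against vehicle. It called 11 higher in T-DM1 against mobocertinib (1.86% of all genes) and 1 lower in resistant against mobocertinib (0.0669%). Apart from the TPM scale, shares of all genes called against vehicle under these alternatives are not given here. In T-DM1 against vehicle the median of all genes was 0.18 by DESeq2 and -0.15 with length and GC offsets, and that of the members 1.83 and 1.52. The cause of the shifts between alternatives was not tested.

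Leaving out each library in turn, members called higher against vehicle ranged from 0 to 4 in mobocertinib, 9 to 25 in T-DM1, 5 to 8 in combination and 1 to 7 in resistant nodules. Members called lower ranged from 0 to 3, 0 to 1, 0 to 1 and 0 to 4. In T-DM1 against mobocertinib 0 to 3 were higher, and in the other comparisons without vehicle the range was 0 to 0. With 1 vehicle library left, that library is assumed to vary like the other groups. No paired analysis was possible because the replicate numbers follow the order of deposit and the labels give groups no shared numbers. With 2 vehicle libraries that stand apart in transcript length and cell markers, drug effects and these differences cannot be told apart in any comparison with vehicle.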
